A study of Homo sapiens with 4 samples.

Results

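The receptor-regulated SMADs and SMAD4 were examined in human embryonic stem cell (hESC)-derived cells differentiated toward blood, at a stage that spans the endothelial-to-hematopoietic transition (EHT). The 6 genes, SMAD1, SMAD2, SMAD3, SMAD4, SMAD5 and SMAD9, were taken by symbol from 58365 rows of expression values, and each had 1 row. The data were 4 RNA-seq libraries of the hESC line H1, 2 from cells given the solvent DMSO and 2 from cells given SB431542 (SB). Both groups received 40 ng/ml activin A and 50 ng/ml BMP4 for 2 days, then 40 ng/ml VEGF and 50 ng/ml bFGF for 3 days, and kept VEGF and bFGF for a last stage of 3 days, in which SB431542 was present or absent, before collection at day 8. Both groups therefore met ligands of both SMAD branches before the inhibitor was added. According to the study, CD31+ cells were collected for sequencing, which the labels leave out. All libraries came from 1 cell line, and the study speaks of independent experiments for its analyses in general, but the labels do not tie the 2 libraries of a group to separate cultures, so the p-values measure the spread between these libraries, which may be technical.

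SMAD proteins carry signals of the TGFβ family from the cell surface to the nucleus. Type I receptors of the TGFβ and activin class phosphorylate SMAD2 and SMAD3, those of the BMP class phosphorylate SMAD1, SMAD5 and SMAD9 (also called SMAD8), and the receptor-regulated SMADs of either branch then join SMAD4, the common partner, to act on target genes. SB431542 blocks the kinases TGFBR1, ACVR1B and ACVR1C, which act on SMAD2 and SMAD3. It acts on the phosphorylation of these proteins, which RNA-seq does not measure, so the values here are transcript levels only. TGFβ signaling acts on endothelial cells and on early blood cells, and SMAD1 and SMAD5 are needed in early blood and vessel formation.

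The values were FPKM, fragment counts scaled to transcript length and library size. This allows levels to be compared between genes only roughly, and replicate differences also went with transcript GC content, as given below. From the steps between low values, the libraries held about 18200000 to 24000000 fragments (rounded estimates), with SB replicate 1 the shallowest. The endothelial markers, PECAM1 (CD31) among them, were all at 1 FPKM or more (10 of 10) and summed to 1704 to 1910 FPKM with DMSO and 1692 to 1868 FPKM with SB. Hematopoietic markers were also present (7 of 8 at 1 FPKM or more in every library), and PTPRC (CD45) stood at most at 0.202 FPKM. In bulk RNA, fewer cells of a type and less RNA per cell cannot be told apart. Summed hematopoietic markers were higher with SB, at 457 to 511 against 320.2 to 346 FPKM. Other lineages were lower with SB, with 12.5 to 12.9 against 156 to 171 FPKM for 5 endoderm and liver markers, 63.3 to 67.0 against 166 to 187 FPKM for 7 mesenchymal and smooth muscle markers, and 100.1 to 109 against 192 to 199 FPKM for 4 epithelial markers. The 4 pluripotency markers summed to 37.1 to 42.8 FPKM with DMSO and 46.2 to 54.4 FPKM with SB, but DNMT3B made up nearly all of this. DNMT3B stood at 42.3 and 36.5 FPKM with DMSO and at 53.1 and 44.4 FPKM with SB. NANOG stood at most at 0.0261 FPKM, SOX2 at most at 0.121 FPKM and POU5F1 at 0.442 to 1.60 FPKM. Of all these markers, 0 were at 0 in every library. The part of these shifts in the results on the SMADs was not tested.

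The 6 genes lie on 5 chromosomes (coordinates on GRCh38, counted from 1), and all are annotated as protein coding. In the TGFβ branch, SMAD2 (ENSG00000175387.15) spans 47808957 to 47931146 on chromosome 18, minus strand, and SMAD3 (ENSG00000166949.15) spans 67063763 to 67195195 on chromosome 15, plus strand. In the BMP branch, SMAD1 (ENSG00000170365.9) spans 145481194 to 145558079 on chromosome 4 and SMAD5 (ENSG00000113658.16) spans 136132845 to 136188747 on chromosome 5, both on the plus strand. SMAD9 (ENSG00000120693.13) spans 36844831 to 36920765 on chromosome 13, minus strand. SMAD4 (ENSG00000141646.13) spans 51028394 to 51085045 on chromosome 18, plus strand.

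Within the BMP branch, SMAD9 had the largest difference between groups and SMAD5 a small one, and the DNA just upstream of their RefSeq starts is shown for this contrast (RefSeq, GRCh38.p14, each gene having 1 window). The stretch for SMAD9 is chr13:36920273-36920488 on the minus strand (216 bases) and that for SMAD5 is chr5:136132595-136132844 on the plus strand (250 bases). The stretch for SMAD9 lies inside the longer locus given above, outside its exons. Capitals mark matches to GTCT or its reverse complement AGAC, the core letters of the SMAD-binding element.
SMAD9: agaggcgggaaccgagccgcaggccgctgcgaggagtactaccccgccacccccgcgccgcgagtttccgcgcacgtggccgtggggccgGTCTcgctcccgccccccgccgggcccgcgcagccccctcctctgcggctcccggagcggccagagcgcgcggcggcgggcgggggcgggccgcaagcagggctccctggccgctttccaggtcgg
SMAD5: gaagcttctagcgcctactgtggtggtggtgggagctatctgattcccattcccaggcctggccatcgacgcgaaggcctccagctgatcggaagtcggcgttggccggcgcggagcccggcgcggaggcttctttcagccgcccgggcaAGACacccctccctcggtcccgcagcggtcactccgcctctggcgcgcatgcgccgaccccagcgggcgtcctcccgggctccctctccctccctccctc
Each stretch held 1 match to GTCT, read on both strands, and at least 1 match was held by 72.9% and 77.5% of all 35116 RefSeq promoter windows of the same 216 and 250 bases. The palindrome GGCGCC, a GC-rich letter string known to be bound by BMP-branch SMADs, had 0 matches in either stretch and at least 1 in 13.9% and 16.4% of all windows. The letters of the motifs do not overlap each other. These counts describe letters only.

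The levels were compared between the 6 genes. SMAD4 and SMAD2 were the most abundant, at averages of 33.1 and 31.4 FPKM over the 4 libraries, and their ranges overlapped. SMAD4 varied least, from 31.98 to 34.9 FPKM, while SMAD2 ran from 25.8 to 38.7 FPKM. SMAD5 (15.5 FPKM on average) and SMAD3 (14.4 FPKM) followed, and they too could not be ordered, since each was the higher in 2 of the 4 libraries. SMAD1 (8.65 FPKM) lay below both in every library. SMAD9 was the lowest by far, at 1.10 FPKM on average, with SMAD1 7.88-fold above it. In place among the 14909 genes tested, the mean level of SMAD4 exceeded that of 79.7% and the mean level of SMAD9 exceeded that of 5.52%.

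**Figure D1:**
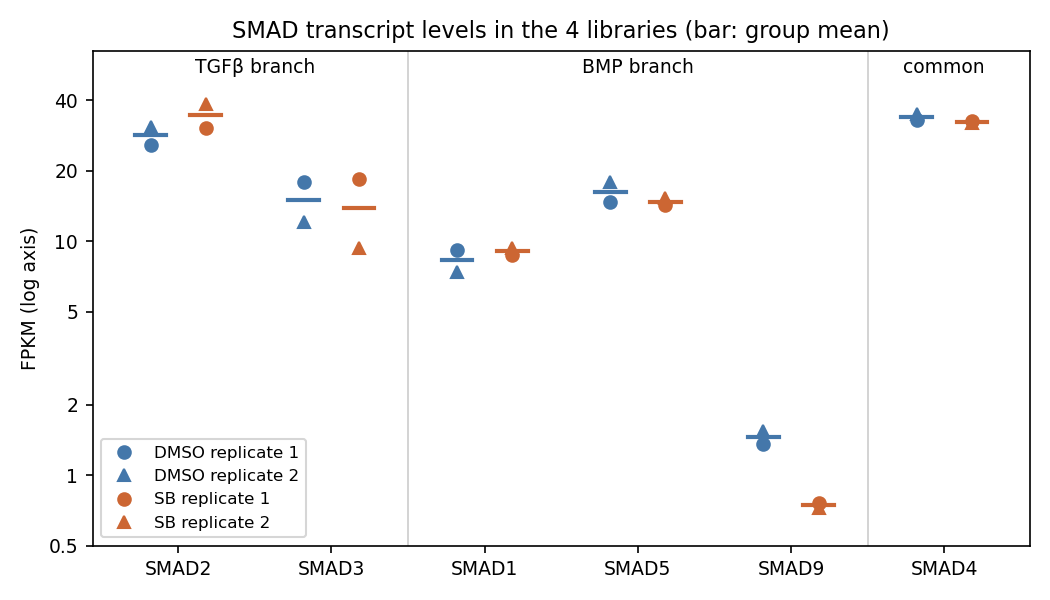
Transcript levels in FPKM (log axis) of the 6 SMAD genes, with a circle for replicate 1, a triangle for replicate 2 and a bar for the mean of each group (n = 2). SMAD9 is the only gene of the BMP branch whose groups stand apart, at 1.36 and 1.55 FPKM with DMSO and 0.762 and 0.724 FPKM with SB.

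To determine whether blocking the TGFβ receptors changed the transcripts of the SMADs, SB and DMSO libraries were compared with limma on log2(FPKM + 1), over all genes with a mean of at least 1 FPKM in at least 1 group. Of the 6 SMAD genes, 0 passed an adjusted p of 0.05 and 0 had an unadjusted p under 0.05. Of all 14909 genes tested, 0.134% passed the adjustment (0.107% lower and 0.0268% higher with SB) and 9.96% had an unadjusted p under 0.05 (5.16% lower and 4.8% higher). The groups of libraries did not overlap for SMAD4 and SMAD9, both lower with SB, and for 0 genes in the other direction. Over all genes tested, 37.5% did not overlap, 16% being lower with SB and 21.5% higher. The median log2 difference of the 6 genes was -0.10, against 0.04 over all genes tested, and the median size regardless of sign was 0.14 against 0.19. With 2 libraries a group the intervals were wide, and they are given for each gene because an adjusted p above the threshold does not show equal levels.

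In the TGFβ branch, SMAD2, which carries activin and TGFβ signals, stood at 25.8 and 30.8 FPKM with DMSO and at 30.4 and 38.7 FPKM with SB (28.3 ± 3.56 and 34.6 ± 5.84, SD, n = 2 each). The groups overlapped, with the higher DMSO library just above the lower SB library. Within replicate numbers, SMAD2 was higher with SB by 0.23 and 0.32 on the log2 scale, and the fitted log2 difference was 0.28 (SE 0.20, 95% interval -0.25 to 0.81, limma adjusted p 0.775). SMAD3, the partner with its own DNA-binding activity, stood at 17.8 and 12.1 FPKM with DMSO and at 18.4 and 9.37 FPKM with SB (15.0 ± 4.06 and 13.9 ± 6.41, SD, n = 2 each). Here the values followed the replicate number and not the group, and the SB libraries held both the highest and the lowest value. The log2 difference was -0.15 (SE 0.37, 95% interval -1.11 to 0.82, limma adjusted p 0.966), with 0.04 and -0.34 within replicate numbers. Its sign rested on single libraries, being 0.12 without DMSO replicate 1 and 0.31 without SB replicate 2.

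SMAD2 and SMAD3 took opposite courses between the replicate numbers. SMAD3 in replicate 2 reached 0.678 of its FPKM in replicate 1 with DMSO and 0.509 with SB, while SMAD2 reached 1.20 and 1.27. The SMAD2 to SMAD3 ratio was therefore 1.44 and 2.55 with DMSO and 1.65 and 4.13 with SB, so that it varied more between replicates than between groups. The sum of SMAD2 and SMAD3 was steadier, at 43.6 and 42.9 FPKM with DMSO and 48.9 and 48.1 FPKM with SB. Transcript GC content was taken beside this, since the libraries separated by replicate number. Over 12581 tested genes with a protein-coding transcript, the log2 difference of replicate 2 minus replicate 1 went with GC at a Spearman rho of -0.69 in DMSO and -0.61 in SB, and the difference of SB minus DMSO at -0.13. These are correlations across genes that share the same libraries, given as a description. SMAD3 had the highest GC of the 6 genes (56.3%), and the others lay between 41.1% (SMAD4) and 47.4% (SMAD1). The part of GC in the values of SMAD3 was not tested.

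In the BMP branch, SMAD1, one of the main carriers of BMP signals, stood at 9.15 and 7.37 FPKM with DMSO and at 8.73 and 9.35 FPKM with SB (8.26 ± 1.25 and 9.04 ± 0.438, SD, n = 2 each). The DMSO libraries took in 1 of the 2 SB values, so the groups overlapped. The log2 difference was 0.12 (SE 0.18, 95% interval -0.35 to 0.60, limma adjusted p 0.923), and it was -0.016 without DMSO replicate 2. SMAD5, a close relative of SMAD1 that shares its role, stood at 14.7 and 17.8 FPKM with DMSO and at 14.2 and 15.3 FPKM with SB (16.2 ± 2.22 and 14.7 ± 0.731, SD, n = 2 each). Its values also overlapped, and DMSO replicate 2 stood apart from the other 3 libraries. The log2 difference was -0.13 (SE 0.18, 95% interval -0.59 to 0.34, limma adjusted p 0.918), and 0.0070 without DMSO replicate 2. The SMAD5 to SMAD1 ratio was 1.60, 1.63 and 1.63 in DMSO replicate 1, SB replicate 1 and SB replicate 2, and 2.41 in DMSO replicate 2.

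SMAD9, the least abundant BMP-branch SMAD and itself known as a BMP-responsive gene with weak activity, stood at 1.36 and 1.55 FPKM with DMSO and at 0.762 and 0.724 FPKM with SB (1.45 ± 0.138 and 0.743 ± 0.0268, SD, n = 2 each). Both SB libraries lay below both DMSO libraries, and the gap was larger than the spread within either group. The ratio of the mean FPKM, SB over DMSO, was 0.511, with 0.562 and 0.467 within replicate numbers. On the log2(FPKM + 1) scale, which understates changes at such levels, the difference was -0.49 (SE 0.21, 95% interval -1.04 to 0.061, limma unadjusted p 0.0705, adjusted p 0.566), and with a pseudocount of 0.1 it was -0.88 (limma adjusted p 0.587, and 0.197 to 0.9996 over 10 alternatives). A log2(FPKM + 1) difference as low or lower was held by 8.47% of all genes tested, and one of this size or larger in either direction by 15.6%. SMAD9 entered the test only through its DMSO mean, since its SB mean was under 1 FPKM, so that being tested and being lower with SB are not independent. It was below the stricter filter of 5 FPKM in 2 libraries. If all its fragments came from its longest coding transcript (5592 nt), the values rested on about 170 and 188 fragments with DMSO and 77 and 97 with SB, which gives a counting error of 7.30% to 11.4%.

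The balance within the BMP branch moved with SMAD9. SMAD1 exceeded it 6.75-fold and 4.76-fold in the DMSO libraries and 11.5-fold and 12.9-fold in the SB libraries. SMAD5 exceeded it 10.8-fold and 11.5-fold with DMSO and 18.7-fold and 21.1-fold with SB. Neither ratio overlapped between groups, but both are taken over SMAD9, while SMAD1 and SMAD5 themselves overlapped. The ratios therefore restate the difference of SMAD9, which was tested through its DMSO mean only. Of all genes tested, 37.5% did not overlap between groups. Ratios between members were not tested. SMAD9 made up 5.39% and 5.80% of the summed FPKM of the BMP branch with DMSO and 3.21% and 2.86% with SB. The sum of the branch was 25.2 and 26.7 FPKM with DMSO and 23.7 and 25.3 FPKM with SB, with overlapping groups, and without SMAD9 it was 23.8 and 25.2 FPKM and then 23.0 and 24.6 FPKM.

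**Figure D2:**
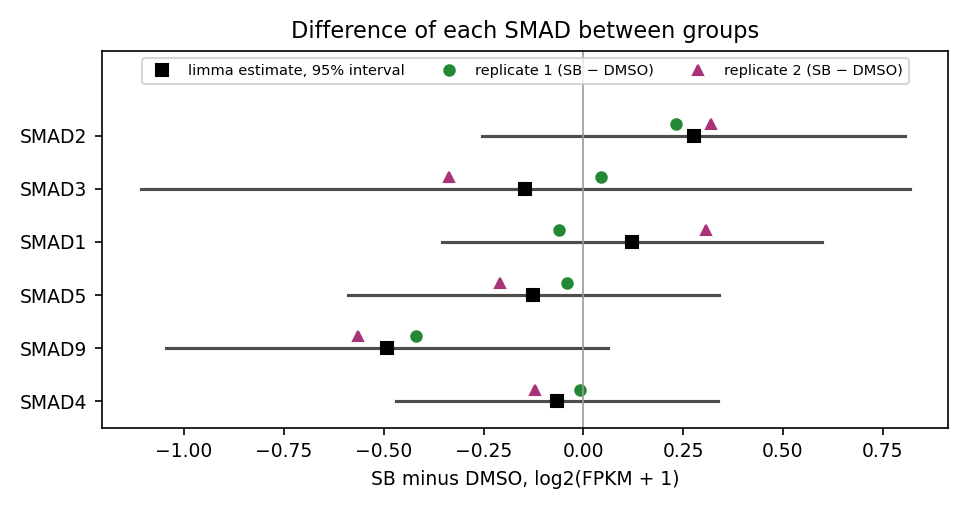
Difference of SB minus DMSO on the log2(FPKM + 1) scale for each SMAD gene, with the limma estimate as a square, its 95% interval as a line, and the values within replicate 1 (circle) and replicate 2 (triangle). All 6 intervals include 0, that of SMAD9 only just (-1.04 to 0.061). Both same-numbered differences share a sign for SMAD2 (higher with SB) and for SMAD4, SMAD5 and SMAD9 (lower with SB). The labels do not establish same-numbered libraries as pairs, and the difference of SMAD5 was 0.0070 without DMSO replicate 2.

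SMAD4, which both branches need, had the smallest difference. Its levels were 32.8 and 34.9 FPKM with DMSO and 32.6 and 31.98 FPKM with SB (33.8 ± 1.499 and 32.3 ± 0.403, SD, n = 2 each). The groups did not overlap, but the nearest libraries, DMSO replicate 1 and SB replicate 1, were 32.8 and 32.6 FPKM. The log2 difference was -0.07 (SE 0.16, 95% interval -0.47 to 0.34, limma adjusted p 0.961). Of all genes tested, 81.2% had a difference of this size or larger.

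The branches were then compared as sums of FPKM in each library, which is a description with no test, because the sums are scores over chosen genes, and with 2 libraries a group the smallest two-sided p of an exact permutation test is 0.333. The TGFβ branch exceeded the BMP branch in all 4 libraries, 1.73-fold and 1.60-fold with DMSO and 2.06-fold and 1.90-fold with SB. The groups did not overlap, and the log2 ratio was 0.25 higher with SB, with a pooled SD between replicates of 0.081. Groups were also apart for 37.5% of all genes tested. SMAD2, the larger part of the TGFβ sum, averaged 28.3 FPKM with DMSO and 34.6 FPKM with SB. Its own groups overlapped (limma adjusted p 0.775). SMAD2 and SMAD3 took opposite courses between replicate numbers and offset each other in the sum. The SD therefore does not show the spread of either gene. Without SMAD9 in the BMP branch the log2 ratio was 0.21 higher, and leaving out each library in turn gave 0.19 to 0.30. Receptor-regulated SMADs together summed to 68.8 and 69.6 FPKM with DMSO and to 72.6 and 73.4 FPKM with SB, of which the TGFβ branch made up 63.4% and 61.6% and then 67.3% and 65.5%. SMAD4 amounted to 0.477 and 0.501 of this sum with DMSO and to 0.449 and 0.436 with SB. In the group means SMAD4 was slightly lower and the sum slightly higher with SB.

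**Figure D3:**
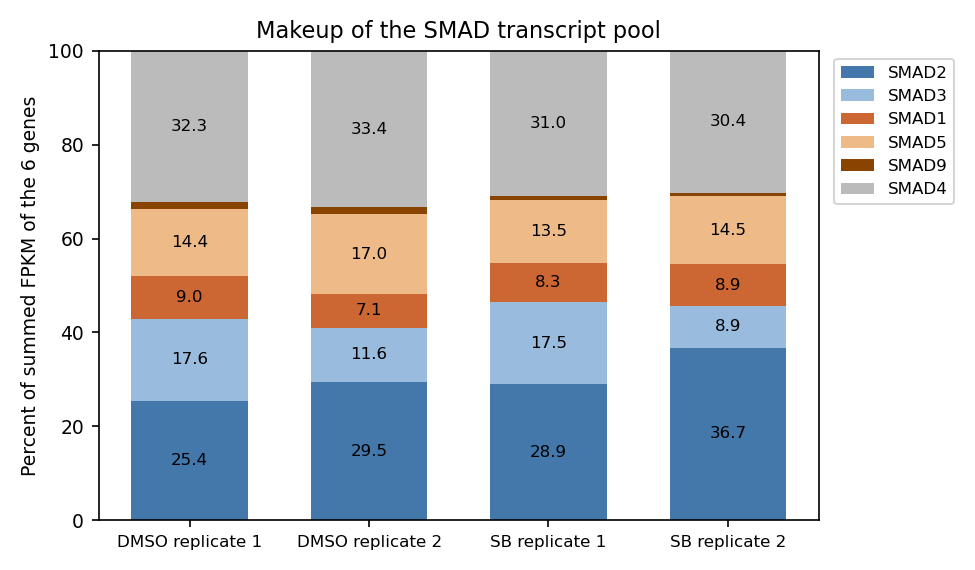
Share of each gene, in percent, in the summed FPKM of the 6 SMAD genes in each library. SMAD2 held 25.4% and 29.5% with DMSO and 28.9% and 36.7% with SB, SMAD4 held 30.4% to 33.4%, and the thin band of SMAD9 held 1.33% and 1.48% with DMSO and 0.724% and 0.687% with SB.

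Genes that overlap the loci were checked, because strand use in counting is not stated. Of 14 such genes, 3 had a mean of at least 0.1 FPKM. MTCO2P2, a pseudogene of a mitochondrial gene inside the SMAD2 locus (47853233 to 47853457 on chromosome 18) on the same strand, stood at 6.67 and 67.3 FPKM with DMSO and at 19.97 and 35.5 FPKM with SB. It was higher in replicate 2 of both groups, as SMAD2 was, and the mitochondrial share of the summed FPKM was 5.88% and 6.64% in replicate 1 of DMSO and SB and 9.92% and 10.2% in replicate 2. The part of this pseudogene in the values of SMAD2 was not tested. AC091551.1, annotated as protein coding on the strand of SMAD4, stood at 0.135 to 0.314 FPKM. SMAD5-AS1, antisense to SMAD5, stood at most at 0.166 FPKM.

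For each member, the gene of the pathway lists with the most similar profile was found by the Euclidean distance between log2(FPKM + 1) values centred on their mean, over 91 candidates and 4 libraries. SMAD9 was nearest to MECOM, a zinc finger factor of blood stem cells that binds SMAD3 (distance 0.13). MECOM stood at 56.1 and 63.3 FPKM with DMSO and at 41.1 and 45.2 FPKM with SB. The log2(FPKM + 1) scale understates changes at the level of SMAD9. The ratio of the mean FPKM, SB over DMSO, was 0.511 for SMAD9 and 0.723 for MECOM. SMAD4 was nearest to ZEB1, a repressor that binds SMADs (0.042). SMAD2 was nearest to XPO4, the nuclear exporter of SMAD3 (0.14), and SMAD3 to HGS, an endosomal adaptor (0.28). SMAD1 was nearest to RANBP3, which helps export SMAD2 and SMAD3 (0.15), and SMAD5 to USP9X, which removes ubiquitin from SMAD4 (0.13). With 4 libraries such profiles are common, and between 10 (for SMAD4) and 431 (for SMAD2) of all genes tested lay closer than the gene named.

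The rest of the pathway was measured in the same fit. Of 102 genes in 7 lists, 91 were tested, and some genes stood in more than 1 list. The inhibitory SMADs, which bind receptors and shut the pathway off, were set against the SMADs they oppose. SMAD6 stood at 372 and 162 FPKM with DMSO and at 66.9 and 30.5 FPKM with SB, so that it exceeded the summed BMP-branch SMADs 14.8-fold and 6.06-fold with DMSO and 2.82-fold and 1.21-fold with SB. SMAD7 stood at 29.3 and 19.6 FPKM with DMSO and at 7.23 and 3.403 FPKM with SB. The summed receptor-regulated SMADs exceeded it 2.35-fold and 3.55-fold with DMSO and 10.04-fold and 21.6-fold with SB. Neither ratio overlapped between groups, and groups were also apart for 37.5% of all genes tested. Both ratios largely restate the lower SMAD6 and SMAD7 with SB. The BMP-branch sum was 25.2 and 26.7 FPKM with DMSO and 23.7 and 25.3 FPKM with SB. The sum of receptor-regulated SMADs was 68.8 and 69.6, then 72.6 and 73.4 FPKM. The log2 differences of the inhibitory SMADs themselves had limma adjusted p of 0.259 for SMAD6 and 0.193 for SMAD7.

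The receptors stand upstream of the receptor-regulated SMADs. Of 6 tested TGFβ and activin receptors, 0 passed at an adjusted or an unadjusted p of 0.05 with limma, and their median log2 difference was 0.04 (-0.022 to 0.25 over 11 alternatives). The kinases that SB431542 blocks stood at 10.2 and 14.7 (DMSO) and 10.7 and 14.4 FPKM (SB) for TGFBR1 and at 9.62 and 8.52 (DMSO) and 8.33 and 8.92 FPKM (SB) for ACVR1B, while ACVR1C was at most at 0.0287 FPKM and was not tested. TGFBR2, the TGFβ type II receptor, stood at 19.4 and 25.4 FPKM with DMSO and at 26.9 and 33.1 FPKM with SB (log2 difference 0.41, limma adjusted p 0.670). The groups did not overlap for TGFBR2 and for the co-receptor TGFBR3 (35.2 and 41.9 FPKM, then 42.1 and 47.1 FPKM), both higher with SB, as were 21.5% of all genes tested. Of 5 tested BMP receptors, 0 passed the adjustment, and 2 were lower at an unadjusted p under 0.05, against 5.16% of all genes tested. These were BMPR2, the BMP type II receptor, at 9.26 and 12.9 FPKM with DMSO and 5.91 and 6.92 FPKM with SB (limma adjusted p 0.411), and the co-receptor ENG (limma adjusted p 0.0986).

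Partners and regulators act on the SMAD proteins in the nucleus or on their way there. The 17 partners and cofactors had a median log2 difference of -0.01, with 0 past the adjustment and 3 lower at an unadjusted p under 0.05, against 5.16% of all genes tested. These were the corepressors SKIL (7.77 and 11.1 FPKM with DMSO, 2.10 and 2.00 FPKM with SB, limma adjusted p 0.0983) and TGIF1 (21.8 and 21.3, then 12.9 and 15.5 FPKM, limma adjusted p 0.388), and MECOM (limma adjusted p 0.479). The 27 genes of anchoring, transport, dephosphorylation and turnover had a median of 0.06, again with 0 past the adjustment. Lower at an unadjusted p under 0.05 were PMEPA1, a membrane protein that holds receptor-regulated SMADs away from the receptor (log2 difference -1.81), and SMURF2, a ubiquitin ligase of the pathway (-0.88), and higher was LDLRAD4 (0.64), a relative of PMEPA1, against 5.16% lower and 4.8% higher of all genes tested.

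The targets on which the SMADs act were measured last. Of 29 tested SMAD2/3 targets, 2 passed the adjustment, and 17 were lower and 3 higher at an unadjusted p under 0.05, against 0.134% past the adjustment, 5.16% lower and 4.8% higher of all genes tested. The matrix protein TGFBI was lower, at 29.7 and 31.0 FPKM with DMSO and 4.10 and 4.93 FPKM with SB (limma adjusted p 0.0365), and the matrix protein THBS1 was higher, at 17.2 and 16.1 FPKM and then 78.9 and 71.6 FPKM (limma adjusted p 0.0463). Both calls were lost when any of the 4 libraries was left out and without a filter, where 0 SMAD2/3 targets passed. The median log2 difference of the SMAD2/3 targets was -0.89 (-1.01 to -0.66 over 11 alternatives), and that of 11 tested BMP targets was -0.87 (-0.99 to -0.46). The summed mesenchymal and smooth muscle markers were also lower in the SB libraries (187 and 166 FPKM with DMSO, 63.3 and 67.0 FPKM with SB), 3 of them (ACTA2, COL1A1 and TAGLN) are also in the SMAD2/3 target list, and their part in the values of the targets was not tested. Among the BMP targets, 0 passed the adjustment, 7 were lower and 0 higher at an unadjusted p under 0.05, beside the same background of 5.16% and 4.8%. As with SMAD9, 3 of the SMAD2/3 targets (CTGF, CDKN2B and LEFTY1) and 1 BMP target (NOG) were tested through 1 group only, so their direction is tied to the filter. Without them, 15 of 26 SMAD2/3 targets were lower and 2 higher, with a median of -0.86, and 6 of 10 BMP targets were lower and 0 higher, with a median of -0.85. ID1, the classic BMP target among them, stood at 470.3 and 505 FPKM with DMSO and at 179 and 187 FPKM with SB (limma adjusted p 0.0803). NOG, a secreted BMP antagonist, stood at 2.32 and 1.46 FPKM with DMSO and at 0.190 and 0.144 FPKM with SB (limma adjusted p 0.217), and ID3, a BMP-responsive inhibitor of basic helix-loop-helix factors, at 135 and 148 FPKM and then 77.6 and 75.8 FPKM (limma adjusted p 0.187). The difference between lists was not tested. The number of genes past the adjustment was 20 in all (16 lower and 4 higher) and rested on single libraries, being 0 without DMSO replicate 1 (1168 at an unadjusted p under 0.05), 10 without SB replicate 1 and 9 without SB replicate 2.

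**Figure D4:**
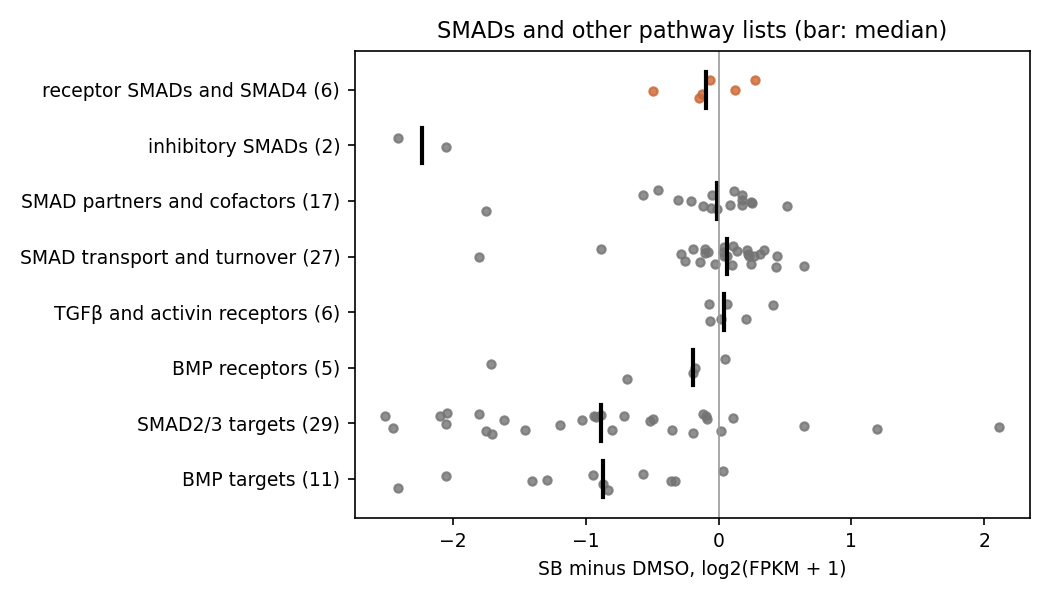
Difference of SB minus DMSO on the log2(FPKM + 1) scale for every tested gene (point) of the receptor-regulated SMADs and SMAD4 and of 7 pathway lists, with the number of genes in brackets and the median as a bar. The SMADs lie between -0.49 and 0.28, while SMAD2/3 targets run from -2.51 to 2.11 around a median of -0.89 and BMP targets from -2.41 to 0.03 around -0.87.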

How the data were processed

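RNA-seq was performed by a service company, and the authors deposited FPKM for each gene and library, with no scaling between libraries stated. The submitters' processing notes name BWA, Bowtie and RSEM, with no role or version, and build hg19. The loci in the table are, however, GRCh38 positions: 95.5% of rows match GENCODE release 29 by identifier and version, and 99.8% of these by position. Absolute depth is not given. It was estimated from what 1 fragment is worth in single-exon genes, assuming effective lengths near the full length, and sets counting error only.

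Values were analysed as log2(FPKM + 1) in limma 3.58.1 (R 4.3.3) with a trended empirical Bayes fit on group alone and Benjamini-Hochberg adjustment (threshold 0.05, two-sided). Genes with a mean of at least 1 FPKM in 1 group were tested (14909). The code was also run on simulated data with independent noise, no replicate-number effect and larger added changes than those of the SMADs. That setting is easier than these data and sets no error rate for them. Groups came from the titles. The text names the 6 members, up to 5 genes per list by unadjusted p with the receptors the inhibitor blocks, overlapping genes and nearest profiles. Members, lists and motifs were chosen with earlier results of these data known. Alternatives were another pseudocount, 2 filters, 3 scalings, the replicate number as a block and removal of each library.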

Additional observations from a re-analysis of the deposited data

How the results depend on the processing

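The number of genes past the adjustment in limma was 20. It was 0 without a filter (2739 at an unadjusted p under 0.05), 31 with quantile normalization, and 0 to 14 when 1 library was left out. With the replicate block it was 1564 (820 higher and 744 lower). Deviations of same-numbered libraries from their group means correlated at 0.53 across genes, but the labels do not say what a number marks, and 2 pairs do not establish a pairing. The block brought 0 of the 6 SMAD genes past the adjustment, and the smallest adjusted p under it was 0.0909, for SMAD2 (0.0909 to 0.9996 over all 11 alternatives). It did bring list genes past it, beside 744 lower and 820 higher of all 14909 genes tested. Lower were both inhibitory SMADs, 3 of 17 partners and cofactors, 2 of 27 regulators of transport and turnover and 2 of 5 BMP receptors. Also lower were 18 of 29 SMAD2/3 targets and 8 of 11 BMP targets. Higher were 1 of 17 partners and cofactors, 3 of 27 regulators, 1 of 6 TGFβ or activin receptors and 3 of 29 SMAD2/3 targets.

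Under every alternative run, 0 of the 6 SMAD genes passed. SMAD2, SMAD4 and SMAD9 kept their direction, with log2 differences of 0.11 to 0.44, -0.11 to -0.022 and -0.88 to -0.43. SMAD9 could not be fitted under the stricter filter, which removes it. With 1 library left out, SMAD1 ranged from -0.016 to 0.26, SMAD3 from -0.60 to 0.31 and SMAD5 from -0.26 to 0.0070, so their direction was not settled. These fits leave a lone library in 1 group, which is assumed to vary like the others. The number of libraries limits every result here. SMAD9 also has an estimated counting error of 7.30% to 11.4%, if all its fragments came from its longest coding transcript.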
